A study of Mus musculus with 20 samples.

Results

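Treated bladders were compared with normal bladders in mice of one engineered line. The comparison took every array titled as a palbociclib sample from the bladder and every array titled as a control, which gave 3 treated and 5 normal arrays of the 20 in the series. The treated bladders are numbered 1, 2 and 3, and the normal bladders 1, 2, 4, 5 and 6, as in the titles. All animals were CKO mice on the FVB/N background, which carry floxed alleles, that of Rb1 among them, and lack the pocket protein p107 (Rbl1), so the normal bladders share the p107 loss. The other engineered genes were not analysed here. Normal bladders have no inoculation or drug named in the labels. Treated bladders had been inoculated with an adenovirus that codes for Cre recombinase, which reaches whichever bladder cells the virus infects, and the mice then received palbociclib daily at 150 mg/kg into the peritoneum over 28 days, together with CDDP, a platinum compound, at 6 mg/kg each week. The comparison therefore joins at least the viral inoculation with Cre, palbociclib, CDDP and the sets of arrays described below. The tumour bladders named next carry Cre without the drugs, and no array separates palbociclib from CDDP. The labels give no age or sex, and nothing in them ties an array to an animal of its own. The p-values therefore measure a spread between samples, which may not be a spread between animals. That spread was pooled within all groups fitted, tumour bladders and metastases included. The other arrays were 7 inoculated bladders without drug (tumour bladders), 4 metastases and 1 metastasis titled with palbociclib.

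Palbociclib inhibits Cdk4 and Cdk6, the kinases that, with D-type cyclins, phosphorylate the retinoblastoma protein and its relatives p107 and p130. Unphosphorylated pocket proteins hold E2F transcription factors and the DREAM complex on the promoters of genes for DNA replication and mitosis and keep those genes low. CDDP forms crosslinks in DNA, which can activate p53 and its target genes. The bladder wall is made of an urothelium, with uroplakin plaques on its luminal cells, over a connective tissue layer and a thick coat of smooth muscle. In this organ the urothelium sends Hedgehog signals to the stroma beneath it, where Ptch1, Hhip and Gli1 are common readouts of the pathway.

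Levels are log2 values of RMA, a method that corrects, normalises and summarises the probes of each gene. Array medians lay between 5.11 and 5.48. Normal bladders 4, 5 and 6 belonged to 8 arrays in the series whose bright genes lie close to their mean over all arrays and whose dim rows are noisier, with an SD of 0.336 to 0.367 in dim rows against 0.228 to 0.269 on the others, apart from tumour bladder 1 at 0.329. The 8 also held tumour bladders 3, 4 and 5 and metastases 3 and 4, and none of the 3 treated arrays was of this kind. Counts over all genes and over gene lists are therefore given against all 5 normal bladders and against normal bladders 1 and 2, and differences of single genes against either or both, as named. Those 8 arrays were singled out after their values had been seen. Treated and normal arrays also differed in the arrays with which they shared exactly equal values. Normal bladders 1 and 2 and 4 tumour or metastasis arrays had 99 to 147 rows per pair of arrays with values equal to 6 decimals, treated bladders 1 and 3 and the palbociclib metastasis had 99 to 110, and no normal and treated array had more than 1. Whatever set arrays apart in this way and the treatment cannot be told apart.

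These sets of arrays were seen in the brightest genes. For mt-Rnr1, a ribosomal RNA of the mitochondrion, the treated bladders lay at 16.06, 16.06 and 16.06, and normal bladders 1 and 2 at 15.68 and 15.68. The palbociclib metastasis was also at 16.06 and metastasis 1 at 15.68. Rpl41, a ribosomal protein gene, was at 15.43, 15.38 and 15.46 on treated bladders 1, 2 and 3, at 15.08 and 15.08 on normal bladders 1 and 2, and at 13.95, 14.04 and 13.99 on normal bladders 4, 5 and 6. Levels of mt-Rnr1 hardly varied within each of these sets and stepped between them, on bladder and metastasis arrays alike. Of 245 rows with a mean level of at least 15, 122 (49.8%) were above normal bladders 1 and 2 on all 3 treated arrays. Among 36 genes at that level 13 were above every normal array on all treated arrays and 0 were below. Among the other 30106 genes these numbers were 87 and 96.

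**Figure D1:**
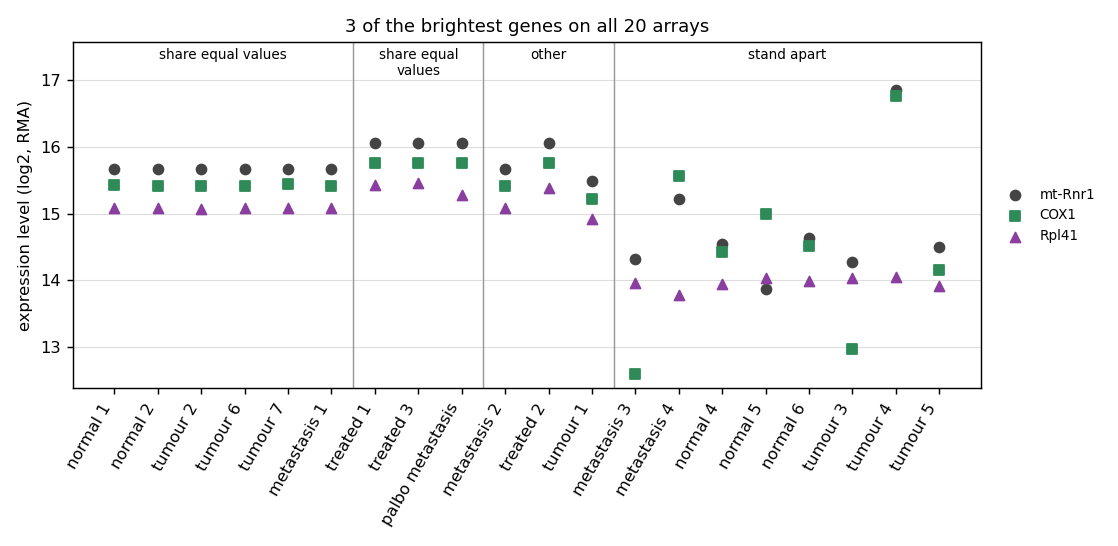
Levels (log2, RMA) of mt-Rnr1, COX1 and Rpl41 on each of the 20 arrays, with vertical lines between the 6 arrays and the 3 arrays that share exactly equal values, the other 3 arrays, and the 8 arrays that stand apart. For mt-Rnr1 the treated bladders and the palbociclib metastasis lie at 16.06 and normal bladders 1 and 2 at 15.68.

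The tissue label was checked on markers of the bladder. Upk1b, an uroplakin of luminal urothelium, was at 13.15 and 13.31 on normal bladders 1 and 2, at 10.06, 10.78 and 9.99 on normal bladders 4, 5 and 6, and at 11.93, 12.27 and 13.30 on treated bladders 1, 2 and 3. Acta2, the smooth muscle actin, was at 11.01 and 11.21, at 7.88, 7.70 and 7.86, and at 7.45, 8.93 and 10.84 on the same arrays. Both tissues of the wall were thus measured on all 3 treated arrays, with urothelial markers high on each and the muscle markers Acta2, Actg2 and Myh11 lowest on treated bladder 1. Krt20, a keratin of the most superficial urothelial cells, stayed between 5.14 and 5.48 on the 8 arrays, near the array medians. Markers of seminal vesicle, prostate and kidney were low: Svs2 was between 4.30 and 5.05, Pbsn between 4.88 and 5.78 and Umod at most 4.94. Skeletal muscle markers were high on treated bladder 1 alone, as described further on. In bulk tissue, fewer cells of a type and less RNA per cell cannot be told apart.

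**Figure D2:**
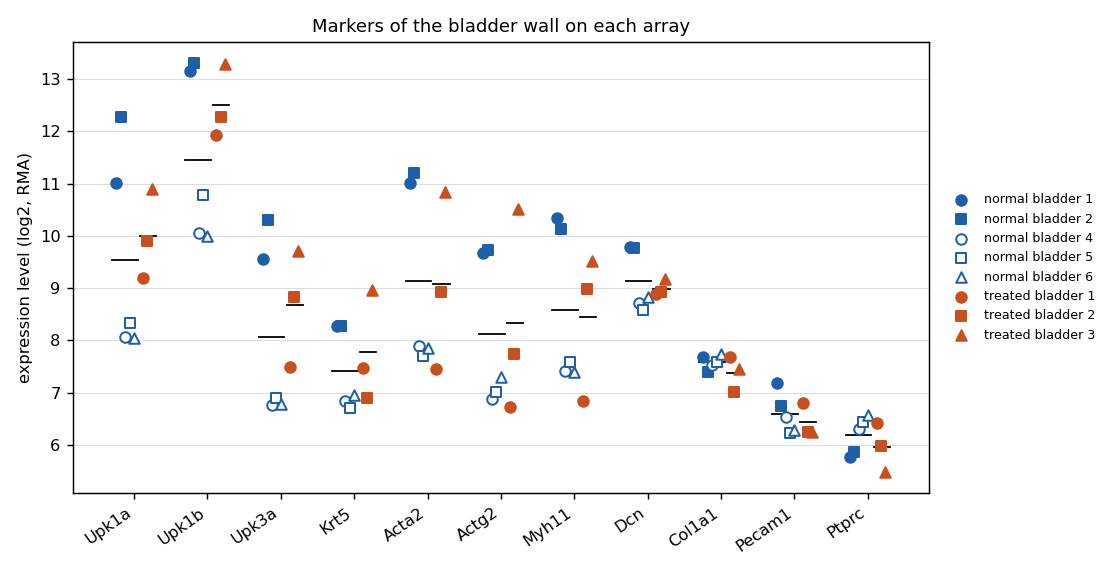
Levels (log2, RMA) of markers of urothelium (Upk1a, Upk1b, Upk3a, Krt5), smooth muscle (Acta2, Actg2, Myh11), fibroblasts (Dcn, Col1a1), endothelium (Pecam1) and leukocytes (Ptprc), 1 point per array, with bars at the means of the 5 normal and 3 treated arrays. Open symbols are normal bladders 4, 5 and 6; Upk1b is at 11.93 or above on the treated bladders.

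Across all genes, 0 of 30142 differed between treated and normal bladders by limma after Benjamini-Hochberg adjustment (smallest adjusted p = 1), which is 0% of genes called. At an unadjusted p under 0.05 there were 108 genes (0.358%), 63 higher (0.209%) and 45 lower (0.149%) in treated bladders, where chance gives 1507. The share higher was 58.3%, but 87% of 138 genes with each array centred on its median. Of all genes, 100 (0.332%) were above every normal array on all 3 treated arrays and 96 (0.318%) were below. Against normal bladders 1 and 2, 0 genes passed (0%, smallest adjusted p = 1) and 247 (0.819%) had an unadjusted p under 0.05, of which 56 were higher (0.186%) and 191 lower (0.634%). Here 1880 genes (6.24%) were above both normal arrays on all treated arrays, and 1834 (6.08%) below. No gene named in the following passed the test over all genes except where that is said, so the values describe these arrays.

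The 3 treated arrays were unlike each other. Across 5317 rows with a mean of at least 7, which are not independent replicates, each array's deviation from the mean of a row gave r = -0.12 between treated bladders 1 and 2, 0.05 between 1 and 3, and -0.59 between 2 and 3, and most normal arrays were unlike each other too. Normal bladders 1 and 2 gave r = 0.81, while the other 9 pairs of normal bladders ranged from -0.18 to 0.02. With predicted genes, small RNAs, pseudogenes and receptor families set aside, 16960 genes were searched for those where 1 treated array lay more than 1 log2 unit above the other 7 arrays of the comparison. There were 50 such genes on treated bladder 1, 1 on treated bladder 2 and 80 on treated bladder 3. The genes of treated bladder 1 were led by skeletal muscle and those of treated bladder 3 included genes of the cell cycle.

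The drug target and its pathway came first among the gene groups. Cdk4, the kinase that palbociclib inhibits, had levels of 6.51, 6.39, 6.60, 6.33 and 6.85 on normal bladders 1, 2, 4, 5 and 6, and at 6.63, 6.40 and 8.18 on treated bladders 1, 2 and 3. Only treated bladder 3 lay outside the normal range, and the difference of 0.54 (SE 0.39, adjusted p = 1 by limma) became -0.016 without that array. Cdk6, its close relative, was between 5.46 and 5.80 on normal bladders and at 5.52, 5.47 and 6.15 on treated ones. The cyclin genes Ccnd2 (6.66, 6.71 and 6.58) and Ccnd3 (5.88, 5.92 and 5.95) lay within their normal ranges of 6.23 to 7.30 and 5.85 to 6.04 on all treated arrays.

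Cdkn2a encodes p16, an inhibitor of Cdk4 and Cdk6 that is commonly high where the retinoblastoma protein is lost. Its level was 5.62 and 5.47 on normal bladders 1 and 2, 6.03, 5.98 and 6.42 on normal bladders 4, 5 and 6, and 5.94, 5.95 and 6.55 on the treated bladders. All 3 treated arrays were above normal bladders 1 and 2, treated bladders 1 and 2 were below the other normal arrays and treated bladder 3 above them, and the difference over the 5 normal arrays was 0.24 (SE 0.27, adjusted p = 1 by limma). Cdkn1a, the p21 inhibitor that p53 induces, was at 6.18, 6.15, 6.24, 6.37 and 6.81 on normal bladders and at 6.88, 6.26 and 7.17 on treated ones. Of 27 measured members of the Cdk4/6-Rb list 17 were higher and 10 lower, with a median difference of 0.07, and against normal bladders 1 and 2 there were 22 higher with a median of 0.25. Without treated bladder 3 the median over the 5 normal bladders was -0.11. For all genes, 46.7% were higher with a median of -0.01, and 52.9% with a median of 0.01 against normal bladders 1 and 2. On treated bladder 3 alone 18 of the 27 were above every normal array, where 21.1% of all genes were. On treated bladders 1 and 2 these numbers were 2 and 0, where 12.0% and 17.0% of all genes were.

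The altered genes were measured as well. Rb1 was at 6.25, 6.18, 5.78, 6.32 and 6.12 on normal bladders and at 6.23, 5.82 and 6.17 on treated ones, within the normal range throughout. Rbl1, absent as a functional gene in all these mice, was at 6.29, 6.27, 6.50, 6.79 and 6.60 on normal bladders and at 6.02, 6.24 and 7.65 on treated ones. Since the position of the probes against the altered exons is not known here, these levels check no deletion. Rbl2, which encodes p130, was between 6.25 and 6.75 on normal bladders and at 6.36, 6.46 and 6.47 on treated ones.

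Genes of DNA replication were high on treated bladder 3. On the other treated arrays their mean level lay slightly above that of normal bladders 1 and 2. Pcna, the sliding clamp of DNA polymerases, was at 7.11 and 6.94 on normal bladders 1 and 2, at 8.06, 7.67 and 7.85 on normal bladders 4, 5 and 6, and at 7.05, 6.79 and 9.77 on treated bladders. Mcm2, a subunit of the replicative helicase, was at 4.84 and 4.96, at 5.44, 5.46 and 5.35, and at 5.06, 5.04 and 6.17. In both genes treated bladder 3 was highest and normal bladders 4, 5 and 6 lay above the remaining arrays. Over the list of S-phase genes and E2F targets, 34 of 38 measured members were higher in treated bladders with a median difference of 0.15, and 38 of 38 against normal bladders 1 and 2 with a median of 0.38. Without treated bladder 3 the median over the 5 normal bladders turned to -0.13. In 23 of the 38 all treated arrays were above both normal bladders 1 and 2, where 6.24% of all genes were. In 0 were they above all 5 normal arrays, where 0.332% of all genes were. The mean level of the list was 5.60, 5.59 and 6.46 on treated bladders 1, 2 and 3, against 5.48 and 5.48 on normal bladders 1 and 2 and 5.87, 5.87 and 5.93 on normal bladders 4, 5 and 6. On treated bladder 3, 31 of the 38 members were above every normal array, where 21.1% of all genes were. On treated bladders 1 and 2 the number was 0, where 12.0% and 17.0% of all genes were.

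Genes of the G2 and M phases were likewise high on treated bladder 3. Mki67, the gene of the proliferation antigen Ki-67, was at 4.58 and 4.71 on normal bladders 1 and 2, at 6.47, 6.22 and 6.41 on normal bladders 4, 5 and 6, and at 5.39, 5.15 and 8.67 on treated bladders 1, 2 and 3. Its difference was 0.72 (SE 0.81, adjusted p = 1 by limma) over the 5 normal arrays and -0.41 without treated bladder 3; against normal bladders 1 and 2, which all 3 treated arrays exceeded, it was 1.75 (SE 1.15, adjusted p = 1 by limma). Top2a, the topoisomerase that untangles chromosomes, was at 5.05 and 5.13, at 6.15, 6.42 and 6.06, and at 5.40, 5.44 and 7.93 on the same arrays. Ccna2, the cyclin of S phase and G2, was at 5.16 and 5.35, at 6.00, 5.83 and 5.97, and at 5.43, 5.80 and 7.28. Over the list 35 of 36 measured members were higher with a median difference of 0.15, and 36 of 36 against normal bladders 1 and 2 with a median of 0.55. Without treated bladder 3 the first of these medians was -0.08. In 29 of the 36 all treated arrays were above both normal bladders 1 and 2, where 6.24% of all genes were. In 0 were they above all 5 normal arrays, where 0.332% of all genes were. The treated mean of the list was 5.68 ± 0.59 (SD, n = 3) and its normal mean 5.46 ± 0.33 (SD, n = 5), with 5.29, 5.39 and 6.36 on treated bladders 1, 2 and 3. On treated bladder 3, 28 of its members were above every normal array, where 21.1% of all genes were. On treated bladders 1 and 2 the numbers were 0 and 1, where 12.0% and 17.0% of all genes were.

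Many genes of this list carry in their promoters the elements through which the DREAM complex, which can contain p107 or p130, and its counterpart in dividing cells act: a cell cycle homology region (TTTGAA) downstream of CCAAT boxes. Promoters of 3 members are shown because 28 of the 36 members were above every normal array on treated bladder 3, where 21.1% of all genes were. The loss of p107 is shared by all animals, the normal bladders included. They run from 250 bases before to 50 bases after the gene's start, are taken from RefSeq on GRCm38.p6, all on the minus strand, and are written 5′ to 3′ along the gene, with CCAAT and TTTGAA on either strand in capitals. Mki67 lies at chr7:135716330-135716629, Top2a at chr11:99024140-99024439 and Cdk1 at chr10:69352863-69353162.
Mki67: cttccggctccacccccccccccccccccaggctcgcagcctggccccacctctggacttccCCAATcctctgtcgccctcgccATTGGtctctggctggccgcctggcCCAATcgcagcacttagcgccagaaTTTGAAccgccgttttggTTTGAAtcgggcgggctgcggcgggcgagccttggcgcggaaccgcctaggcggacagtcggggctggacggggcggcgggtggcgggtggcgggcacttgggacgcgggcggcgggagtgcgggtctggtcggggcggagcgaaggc
Top2a: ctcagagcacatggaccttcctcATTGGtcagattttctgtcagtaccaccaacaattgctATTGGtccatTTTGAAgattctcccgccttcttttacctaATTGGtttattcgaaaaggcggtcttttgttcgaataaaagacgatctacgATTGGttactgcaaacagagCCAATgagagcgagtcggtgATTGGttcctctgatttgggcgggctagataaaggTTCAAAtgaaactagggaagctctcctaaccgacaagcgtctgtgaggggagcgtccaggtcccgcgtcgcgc
Cdk1: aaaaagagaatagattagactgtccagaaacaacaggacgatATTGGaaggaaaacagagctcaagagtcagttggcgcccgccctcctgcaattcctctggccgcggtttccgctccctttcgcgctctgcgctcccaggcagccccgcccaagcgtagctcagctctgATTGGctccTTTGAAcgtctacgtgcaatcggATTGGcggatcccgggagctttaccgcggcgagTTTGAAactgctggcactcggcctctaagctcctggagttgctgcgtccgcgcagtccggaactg
CCAAT was found 3, 6 and 3 times in these windows and TTTGAA 2 times in each. RefSeq promoters matched 30 of the 36 measured members of the list, of which 21 (70.0%) held CCAAT, 22 (73.3%) TTTGAA and 18 (60%) both. The shares over all 27025 genes with a promoter of this length were 41.1%, 20.2% and 7.97%. In each case a gene was counted if any of its promoters held the letters. Among S-phase genes and E2F targets, 20 of 33 held CCAAT and 5 of 33 TTTGAA. Among the skeletal muscle genes, which were high on treated bladder 1, 9 of 17 held CCAAT and 0 TTTGAA. The matches describe letters and not binding.

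**Figure D3:**
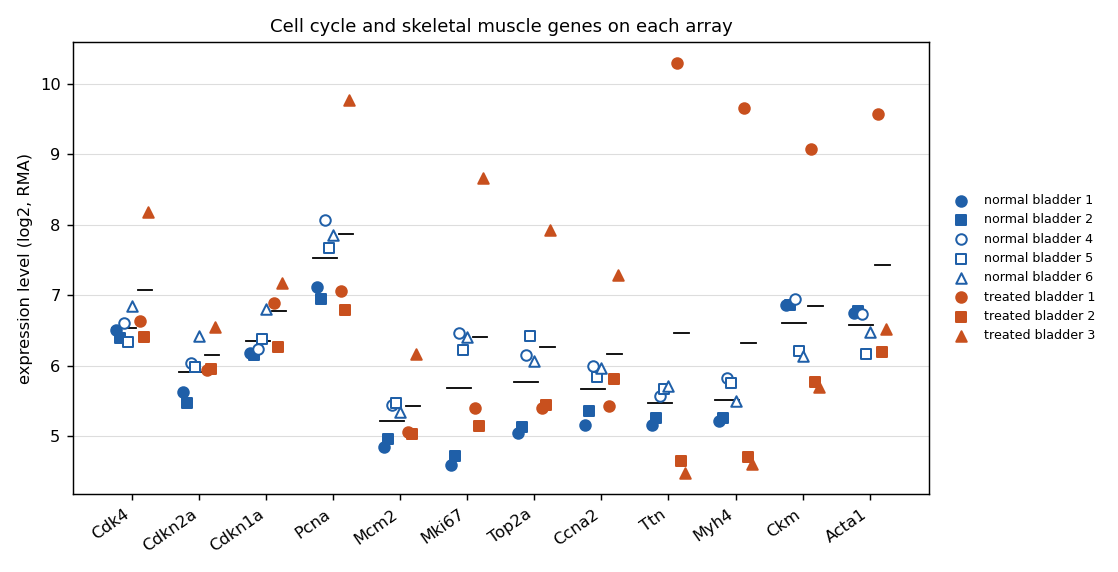
Levels (log2, RMA) of genes of the Cdk4/6-Rb axis (Cdk4, Cdkn2a, Cdkn1a), of replication and mitosis (Pcna, Mcm2, Mki67, Top2a, Ccna2) and of skeletal muscle (Ttn, Myh4, Ckm, Acta1), 1 point per array, with bars at the means of the 5 normal and 3 treated arrays. Treated bladder 3 is highest for Mki67 at 8.67 and treated bladder 1 for Ttn at 10.30.

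Other genes set treated bladder 3 apart by more than 2 log2 units from the other 7 arrays. H2az1, a histone variant, was at 10.78 there and between 7.54 and 8.70 elsewhere. Tuba1c, an alpha tubulin, was at 12.77 against 9.40 to 10.61. Peg10, an imprinted gene derived from a retrotransposon, was at 7.43 against 4.59 to 5.17. The remaining ones were Gsdmc2 (10.85 against 7.34 to 8.50) and Gsdmc3 (9.45 against 6.08 to 7.11), members of the gasdermin family of epithelia, Sprr2b (11.86 against 6.17 to 9.70), which encodes an envelope protein of squamous epithelia, and Mki67. Hif1a, the hypoxia-inducible factor, was at 8.68 on this array and between 6.31 and 7.14 on the others. These genes were picked from their values.

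Targets of p53 and genes that handle platinum damage gave no direction common to the 3 treated arrays. Of 27 measured p53 targets 15 were higher, with a median difference of 0.03 (-0.04 without treated bladder 3), and 17 against normal bladders 1 and 2, with a median of 0.04. Ccng1, a p53-induced cyclin, was at 7.33, 7.31, 6.47, 7.19 and 6.62 on normal bladders and at 8.21, 6.24 and 6.40 on treated ones, so that treated bladder 1 lay above and the other 2 below every normal array. Mdm2, which encodes the ubiquitin ligase of p53, stayed between 5.98 and 6.27 on normal bladders and at 6.07, 5.96 and 6.25 on treated ones. Of 35 repair genes 22 were higher with a median of 0.02 (-0.05 without treated bladder 3), and 24 against normal bladders 1 and 2 with a median of 0.07. On treated bladder 3, 10 of the p53 targets and 17 of the repair genes were above every normal array, where 21.1% of all genes were. These numbers were 6 and 1 on treated bladder 1, where 12.0% of all genes were. They were 2 and 3 on treated bladder 2, where 17.0% of all genes were. Ercc1, of the nuclease that excises platinum adducts, was at 5.88, 5.93 and 5.82 on treated bladders and between 5.46 and 5.95 on normal ones. Xpc, which senses bulky lesions, was at 6.05, 5.90 and 5.94 against 5.74 to 6.29.

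Among genes of platinum transport and thiol defence 20 of 29 were higher with a median of 0.04 (-0.04 without treated bladder 3), and 15 against normal bladders 1 and 2 with a median of 0.02. Mt1, a metallothionein that binds metals, was at 6.96, 6.68, 7.52, 7.61 and 7.26 on normal bladders and at 8.70, 7.04 and 7.18 on treated ones. Its relative Mt2 was at 6.23 on treated bladder 1, and at 4.69 and 4.79 on treated bladders 2 and 3, against 4.29 to 5.85. Both metallothioneins were highest on treated bladder 1. Gsr, the glutathione reductase, was instead highest on treated bladder 3, at 7.94, against 6.21 and 6.03 on the other treated bladders and 5.79 to 6.61 on normal ones. Slc31a1, the copper transporter that also carries CDDP, was at 6.14, 6.16 and 6.54 on treated bladders and between 5.91 and 6.30 on normal ones.

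Wide gaps that all 3 treated arrays shared lay towards normal bladders 1 and 2, among them in genes of the stroma. Hhip, which encodes a surface protein that binds Hedgehog ligands and is induced by them, had levels of 9.29 and 8.86 on normal bladders 1 and 2, as against 5.89, 6.02 and 6.14 on treated bladders 1, 2 and 3. Ptch1, the Hedgehog receptor and a target of the pathway, was at 8.49 and 8.16 and at 6.65, 6.31 and 6.66. On normal bladders 4, 5 and 6, Hhip was at 5.82, 5.74 and 6.08 and Ptch1 at 6.41, 6.51 and 6.39, among the treated arrays. The difference from normal bladders 1 and 2 was -3.06 for Hhip (SE 0.83, adjusted p = 1 by limma) and -1.79 for Ptch1 (SE 0.31, adjusted p = 1 by limma), and from all 5 normal bladders -1.14 (SE 0.83) and -0.65 (SE 0.42).

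Other genes linked with this signal were chosen after their values were seen. Bmp5, a ligand of the bone morphogenetic family expressed in bladder stroma, was at 10.15 and 9.87 on normal bladders 1 and 2, at 6.80, 6.81 and 6.64 on normal bladders 4, 5 and 6, and at 7.83, 6.50 and 6.84 on treated bladders. Gli1, the transcription factor that Hedgehog signals induce, was at 6.52 and 6.04, at 5.98, 5.78 and 5.95, and at 5.77, 5.97 and 5.95. Foxf1, a mesenchymal factor downstream of Hedgehog, was at 6.80 and 6.79, at 6.08, 5.52 and 6.52, and at 6.39, 6.41 and 6.16. All 3 genes were highest on normal bladders 1 and 2, with a gap to the treated arrays of over 2 log2 units in Bmp5 and under 1 in the others. The ligand Shh (5.94, 5.37 and 6.20 on treated bladders, 5.21 to 6.04 on normal ones) and the transducer Smo (6.17, 6.04 and 6.48, against 5.91 to 6.39) did not share that pattern.

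Avpr1a, a vasopressin receptor of smooth muscle, had the smallest p against normal bladders 1 and 2 in the fit that pooled all groups. With only the 5 arrays compared, a fit chosen after the data were seen, Hhip had a smaller p than Avpr1a. In that fit 0 genes passed by limma (smallest adjusted p = 0.131). Avpr1a was at 8.10 and 8.15 on normal bladders 1 and 2, at 5.32, 5.83 and 4.90 on normal bladders 4, 5 and 6, and at 5.31, 5.16 and 5.90 on treated bladders. In the pooled fit its difference from the first pair was -2.67 (SE 0.44, adjusted p = 1 by limma). Calcrl, the receptor for the vessel-relaxing peptides CGRP and adrenomedullin, was at 8.10 and 7.55, at 6.55, 6.59 and 6.13, and at 6.67, 6.09 and 6.36 (difference -1.45, SE 0.35, adjusted p = 1 by limma). Col14a1, a collagen that binds fibrils, was at 7.96 and 7.76, at 6.67, 6.90 and 7.06, and at 6.76, 7.14 and 7.06 (difference -0.87, SE 0.23, adjusted p = 1 by limma). Over all 5 normal bladders these differences were smaller, at -1.001 for Avpr1a (SE 0.70), -0.61 for Calcrl (SE 0.35) and -0.28 for Col14a1 (SE 0.24), each with an adjusted p = 1 by limma. In each of the 3 genes the treated arrays lay below both normal bladders 1 and 2 and overlapped the other normal arrays. The part of smooth muscle content in these levels was not tested.

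Most fibroblast and endothelial genes were also lower on treated bladders. Of 23 fibroblast and matrix genes 17 were lower with a median difference of -0.13, and 16 were lower against normal bladders 1 and 2 with a median of -0.21; 4 of the 23 had an unadjusted p under 0.05 there, where 0.819% of all genes did. Lum, the keratan sulphate proteoglycan lumican, was at 9.70 and 9.18 on normal bladders 1 and 2, at 7.59, 7.98 and 7.42 on normal bladders 4, 5 and 6, and at 7.88, 7.55 and 7.52 on treated ones. Col1a1, the main fibrillar collagen, was at 7.40 to 7.74 on normal bladders and at 7.69, 7.002 and 7.45 on treated ones, with treated bladder 2 alone below the normal range. Of 19 endothelial genes 17 were lower in both comparisons, with medians of -0.14 and -0.19 and 5 of the 19 had an unadjusted p under 0.05 in the second, against the same 0.819% of all genes. Tek, the angiopoietin receptor, was at 6.95 and 6.46 on normal bladders 1 and 2, at 5.90, 5.92 and 6.28 on normal bladders 4, 5 and 6, and at 6.32, 5.96 and 5.64 on treated bladders.

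**Figure D4:**
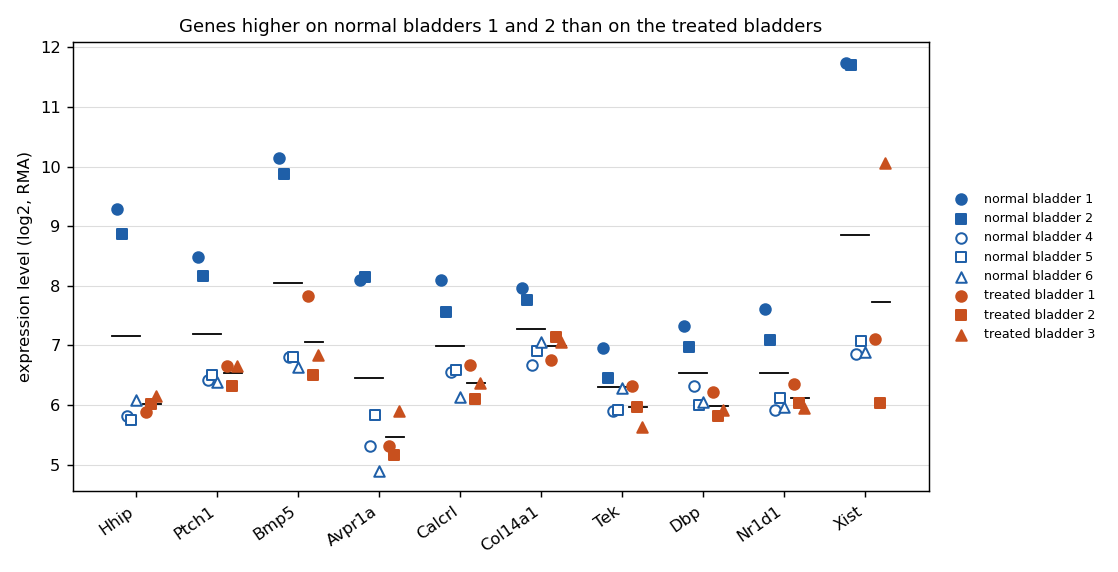
Levels (log2, RMA) of genes that were higher on normal bladders 1 and 2 than on all 3 treated bladders, 1 point per array, with bars at the means of the 5 normal and 3 treated arrays. For Hhip the treated bladders lie between 5.89 and 6.14, among normal bladders 4, 5 and 6 (open symbols) and below normal bladders 1 and 2 at 9.29 and 8.86.

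Smooth muscle genes varied widely among the treated bladders. Myh11, the heavy chain of smooth muscle myosin, was at 10.35 and 10.13 on normal bladders 1 and 2, at 7.42, 7.59 and 7.40 on normal bladders 4, 5 and 6, and at 6.85, 8.99 and 9.51 on treated bladders 1, 2 and 3, and Tagln, which binds actin, at 9.79 and 9.70, at 7.87, 7.58 and 7.38, and at 7.17, 8.18 and 9.77. The difference of Myh11 was -0.13 (SE 1.12, adjusted p = 1 by limma) and reversed to 0.67 without treated bladder 1. Of 23 measured members of the list 9 were higher and 14 lower with a median of -0.02, which turned to 0.15 without normal bladder 1, 0.19 without normal bladder 2, 0.15 without treated bladder 1 and 0.04 with each array centred on its median. Against normal bladders 1 and 2, 22 were lower with a median of -0.77, and 14 lay below both on all treated arrays, where 6.08% of all genes did. The list averaged 6.66, 7.16 and 7.60 on treated bladders 1, 2 and 3, and 7.98 and 7.97 on normal bladders 1 and 2. On normal bladders 4, 5 and 6 it averaged 6.56, 6.59 and 6.62, so that the treated arrays lay between the pair and the trio of normal ones. Metastases 3 and 4, which also stand apart, averaged 6.52 and 6.49, so a level like that of the trio was also found outside the bladder.

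The urothelium differed in sign with the normal bladders used. Luminal genes had 21 of 24 measured members higher and a median of 0.21 over the 5 normal bladders, and 7 higher with a median of -0.21 against normal bladders 1 and 2. Without treated bladder 3 the first median was -0.11. The list averaged 6.31, 6.40 and 6.30 on normal bladders 4, 5 and 6. On metastases 3 and 4, which also stand apart, it averaged 6.33 and 6.27. Upk1a, a partner in the uroplakin plaque, was at 11.01 and 12.28 on normal bladders 1 and 2, at 8.07, 8.34 and 8.04 on normal bladders 4, 5 and 6, and at 9.20, 9.91 and 10.89 on treated bladders. Upk3a followed the same order, at 9.55 and 10.30, at 6.76, 6.90 and 6.78, and at 7.49, 8.82 and 9.71. Treated bladders lay between the pair and the trio of normal arrays in both genes, apart from treated bladder 3 for Upk3a, which lay between normal bladders 1 and 2. The difference of Upk1b was 1.04 (SE 1.25, adjusted p = 1 by limma) over 5 normal arrays and -0.73 against normal bladders 1 and 2. Krt5, the keratin of basal cells, was at 8.27 and 8.28, at 6.83, 6.71 and 6.96, and at 7.46, 6.90 and 8.97, and 21 of 25 basal and squamous genes were higher with a median of 0.09 (-0.14 without treated bladder 3), 16 with a median of 0.03 against normal bladders 1 and 2.

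Leukocyte genes were mostly lower than on the 5 normal bladders, and for macrophages and B cells the direction turned with the normal bladders used. Ptprc, the pan-leukocyte antigen CD45, was at 5.77 and 5.86 on normal bladders 1 and 2, at 6.31, 6.43 and 6.57 on normal bladders 4, 5 and 6, and at 6.41, 5.98 and 5.48 on treated bladders. Macrophage and monocyte genes had 18 of 22 members lower with a median of -0.13, but 18 of 22 higher with a median of 0.22 against normal bladders 1 and 2. Csf1r, the receptor that macrophages depend on, was at 5.76 and 5.77, at 6.31, 6.14 and 6.42, and at 6.10, 5.96 and 5.56. T and NK cell genes had 22 of 25 members lower with a median of -0.09 (0.002 without treated bladder 3), and 16 lower with a median of -0.02 against normal bladders 1 and 2. B and plasma cell genes had 16 of 18 lower with a median of -0.09, but 11 higher with a median of 0.02 against normal bladders 1 and 2. Cd3e, of the T cell receptor complex, was at 4.98, 4.94 and 4.89 on treated bladders and between 4.88 and 5.29 on normal ones, near or below the array medians throughout.

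The neutrophil genes S100a8 and S100a9 were high on treated bladder 1. S100a8, a calcium-binding protein of neutrophils, was at 4.26 and 4.64 on normal bladders 1 and 2, at 7.45, 6.64 and 7.89 on normal bladders 4, 5 and 6, and at 8.71, 5.16 and 4.87 on treated bladders 1, 2 and 3. S100a9, its partner, was at 4.68 and 5.23, at 8.07, 6.42 and 8.97, and at 10.05, 6.69 and 5.30. Both were highest of the 8 arrays on treated bladder 1 and near normal bladder 2 on treated bladder 3. The list as a whole averaged 5.87, 5.45 and 5.22 on treated bladders and between 5.04 and 5.92 on normal ones, and 6 of its 20 members were above every normal array on treated bladder 1, where 12.0% of all genes were. It had 12 of 20 members higher with a median of 0.01 (-0.08 without treated bladder 1), and 17 higher with a median of 0.26 against normal bladders 1 and 2.

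Skeletal muscle genes marked treated bladder 1. Ttn, the giant spring of the sarcomere, was at 10.30 there, at 4.64 and 4.47 on treated bladders 2 and 3, and between 5.16 and 5.71 on normal bladders. Myh4, a fast myosin heavy chain, was at 9.65, 4.71 and 4.60 on treated bladders and between 5.22 and 5.83 on normal ones, a difference of 0.81 (SE 0.77, adjusted p = 1 by limma) that was -0.86 without treated bladder 1. Ckm, the muscle creatine kinase, was at 9.07, 5.77 and 5.70 against 6.14 to 6.95. In the list 22 of 22 members were above every normal array on treated bladder 1, while 15 on treated bladder 2 and 17 on treated bladder 3 were below every normal array, where 12.0%, 15.1% and 28.8% of all genes were. The list averaged 8.07, 5.19 and 5.13 on treated bladders 1, 2 and 3, and between 5.50 and 5.81 on normal ones. Of the 50 genes more than 1 log2 unit above all other arrays on treated bladder 1, 15 were of this list. The part of this tissue in other values of treated bladder 1 was not tested.

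Energy metabolism leaned upwards on treated bladders 1 and 3. Ldha, which makes lactate, was at 6.52 and 6.43 on normal bladders 1 and 2, at 6.93, 6.86 and 7.13 on normal bladders 4, 5 and 6, and at 7.39, 6.61 and 7.75 on treated ones, a difference of 0.48 (SE 0.30, adjusted p = 1 by limma). Pgk1, a glycolytic kinase, was at 5.88 and 5.83, at 6.35, 6.92 and 7.24, and at 8.65, 5.42 and 7.68. Treated bladder 2 lay among the normal arrays or below them in both genes. Glycolysis and hypoxia genes had 22 of 25 members higher with a median of 0.14, and 25 of 25 with a median of 0.26 against normal bladders 1 and 2. Oxidative phosphorylation genes had 23 of 26 higher with a median of 0.16, and 18 with a median of 0.10 against that pair. On treated bladder 1, 11 of the glycolysis and 15 of the oxidative phosphorylation genes were above every normal array, where 12.0% of all genes were, and on treated bladder 3, 16 and 17, where 21.1% of all genes were. On treated bladder 2 these numbers were 1 and 0, where 17.0% of all genes were. There 10 and 13 members lay below every normal array, where 15.1% of all genes did.

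Clock genes gave 2 of 16 members at an unadjusted p under 0.05 over the 5 normal bladders, where 0.358% of all genes had one, and 6 against normal bladders 1 and 2, where 0.819% had one. Dbp, an output factor of the clock, was at 7.33 and 6.98 on normal bladders 1 and 2, at 6.33, 6.01 and 6.04 on normal bladders 4, 5 and 6, and at 6.21, 5.81 and 5.91 on treated bladders (difference from the first pair -1.18, SE 0.22, adjusted p = 1 by limma). Nr1d1, the repressor that restrains Arntl, was at 7.61 and 7.09, at 5.91, 6.11 and 5.97, and at 6.35, 6.04 and 5.94 (difference -1.24, adjusted p = 1 by limma). Arntl, the core activator, ran the other way, at 5.67 and 5.99, at 6.03, 6.37 and 6.18, and at 6.29, 6.19 and 6.64 (difference 0.54, adjusted p = 1 by limma). Over all 5 normal bladders the differences were -0.56 for Dbp, -0.43 for Nr1d1 and 0.33 for Arntl, each with an adjusted p = 1 by limma. In all 3 genes the treated arrays lay on one side of normal bladders 1 and 2, with normal bladders 4, 5 and 6 overlapping them. Per1 (6.08, 6.07 and 5.56, against 5.60 to 6.15 on normal bladders) and Clock (6.94, 6.91 and 7.89, against 7.08 to 7.29) showed no such order. Over the list 7 of 16 were higher with a median of -0.05, which turned to 0.007 with each array centred on its median, and 6 were higher with a median of -0.10 against normal bladders 1 and 2. The hour of sampling is not given in the labels.

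Xist, the RNA that coats the inactive X chromosome, was high on normal bladders 1 and 2 and on treated bladder 3. It was at 11.74 and 11.71 on normal bladders 1 and 2, at 6.85, 7.07 and 6.89 on normal bladders 4, 5 and 6, and at 7.10, 6.04 and 10.05 on treated bladders 1, 2 and 3 (difference from the first pair -3.99, SE 0.87, adjusted p = 1 by limma). Over all 5 normal bladders the difference was -1.12 (SE 1.11, adjusted p = 1 by limma), and -0.27 without treated bladder 2. Without treated bladder 3, the treated array with high Xist, the difference from normal bladders 1 and 2 was -5.15. Xist was then the 1 gene that passed over all genes (adjusted p = 0.00191 by limma, with 328 genes at an unadjusted p under 0.05). That fit set treated bladders 1 and 2 against normal bladders 1 and 2 and was chosen after the values were seen. Since it leaves out the treated array nearest to that pair in Xist, its result is no evidence of a difference. Uty, which lies on the Y chromosome, had levels of 4.84 and 5.01, at 5.58, 5.60 and 5.58, and at 5.48, 5.61 and 5.22. The part of sex in the comparison with normal bladders 1 and 2 was not tested.

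Few genes separated all 3 treated from all 5 normal arrays. Zfp354b, a zinc finger gene, had the smallest p, at 5.57, 5.66, 5.85, 5.96 and 5.99 on normal bladders 1, 2, 4, 5 and 6 and at 5.30, 5.31 and 5.18 on treated bladders (difference -0.54, SE 0.16, adjusted p = 1 by limma). Pcdh17, a protocadherin, was at 6.11, 5.80, 5.66, 5.84 and 5.48 and at 5.50, 5.48 and 5.45 (difference -0.31, adjusted p = 1 by limma). Tmem255b, a membrane protein gene, was at 5.76, 5.71, 5.64, 5.50 and 5.95 and at 5.41, 5.46 and 5.34 (difference -0.30, adjusted p = 1 by limma). Zfp354b and Tmem255b lay below every normal array on all treated arrays and Pcdh17 reached the lowest of them. On the higher side, Mepce, a capping enzyme of the RNA 7SK, was at 6.83, 6.76, 6.64, 6.79 and 6.78 and at 7.07, 6.92 and 7.09 (difference 0.27, SE 0.12, adjusted p = 1 by limma), and Zfp90, another zinc finger gene, at 4.85, 4.95, 4.81, 4.78 and 5.01 and at 5.68, 5.25 and 5.09 (difference 0.45, SE 0.19, adjusted p = 1 by limma). A 2-sided exact permutation test ran over the 56 splits of the 8 arrays. In it Zfp354b, Mepce and Zfp90 were at the smallest p the splits allow, 0.0179 before adjustment. After Benjamini-Hochberg adjustment over 188 named genes each was at 0.979. These genes had been picked from the same arrays for a small p, so this test adds no support. The difference of Zfp90 was 0.19 where the rows of a gene were averaged in place of keeping the brightest, and 0.28 without treated bladder 1. Hey2, a Notch target, was at 5.94, 5.83, 5.93, 5.84 and 5.37 and at 5.60, 5.47 and 5.27 (difference -0.34, adjusted p = 1 by limma).

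These genes overlapped the tumour bladders, which share the inoculation but not the drugs. Tumour bladders 3, 4 and 5 are among the 8 arrays that stand apart and were kept in the ranges, medians, differences and counts that follow. Zfp354b ran from 5.11 to 5.99 over the 7 tumour bladders (median 5.41), Mepce from 6.93 to 7.54 (median 7.13) and Zfp90 from 4.95 to 5.72 (median 5.65). Treated minus tumour differences were -0.17, -0.17 and -0.15, each with an adjusted p = 1 by limma. Genes high on normal bladders 1 and 2 also overlapped them: Hhip ran from 4.502 to 7.83 in tumour bladders (median 5.76), Avpr1a from 4.18 to 5.87 (median 4.59) and Dbp from 5.38 to 6.06 (median 5.80), with treated minus tumour differences of 0.43, 0.65 and 0.23, each with an adjusted p = 1 by limma. Mki67 ran from 5.25 to 8.25 in tumour bladders (median 6.65), so that treated bladders 1 and 2 were near the lowest of them and treated bladder 3 above the highest. In that comparison 0 of 30142 genes passed by limma (0%) and 103 (0.342%) had an unadjusted p under 0.05. Both comparisons share the treated arrays.

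**Figure D5:**
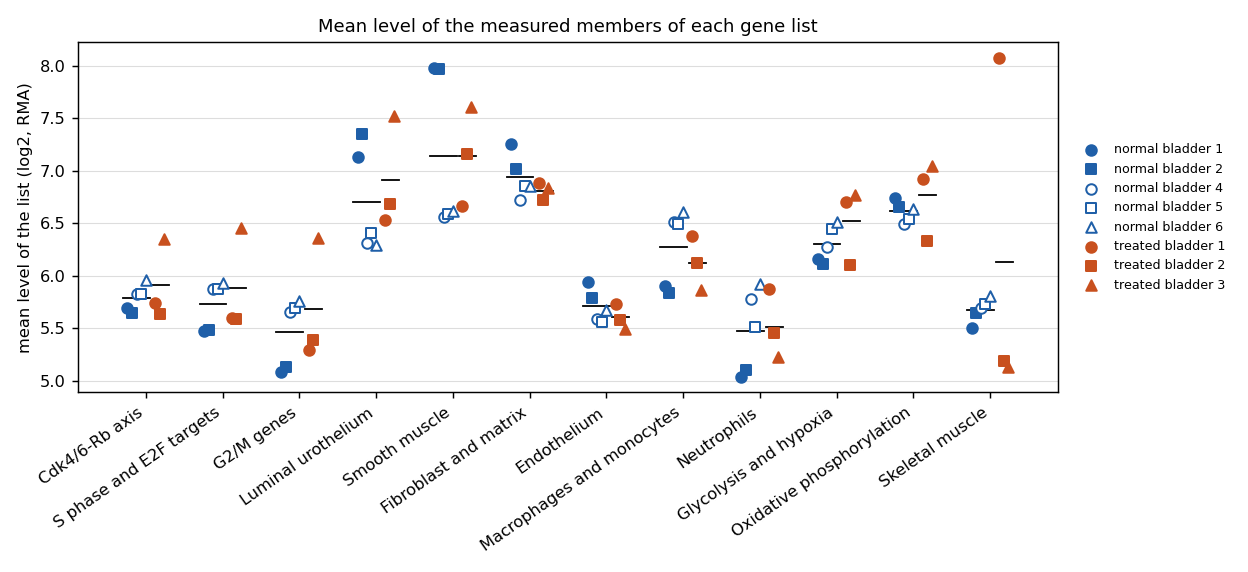
Mean level (log2, RMA) over the measured members of 12 gene lists, 1 point per array, with bars at the means of the 5 normal and 3 treated arrays. Treated bladder 3 is highest for G2/M genes at 6.36 and treated bladder 1 for skeletal muscle genes at 8.07, and normal bladders 1 and 2 (filled) lie apart from 4, 5 and 6 (open) in smooth muscle.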

How the data were processed

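Total RNA came from a kit meant for fixed, embedded tissue, and 12 ng were labelled for Affymetrix whole-transcript arrays, per the labels' protocols. The deposited values are log2 levels that the authors made with RMA in Affymetrix Expression Console, per the submitters' processing notes, which give no versions. No source used here writes the base of the logarithm, which was taken as 2 as in RMA. They ran from 2.16 to 22.0, and how values above 16 arose is not stated. Of 65956 rows, 30604 had 1 gene symbol in the platform annotation (2146 had several, 33206 none). After 827 older symbols were updated through RefSeq, the row with the highest mean was kept for 355 genes with several, which left 30142 genes. Dim genes were kept.

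All 20 arrays in 5 groups were fitted in limma 3.58.1 (R 4.3.3, lmFit and eBayes), 2-sided, with Benjamini-Hochberg adjustment over all genes and a threshold of 0.05, and again without the 8 arrays that stand apart. The procedure was tested on simulated data. Members, lists and tests were chosen with earlier results of these data known. Genes named are the 10 of smallest p on either side in both fits, key members of 39 lists and their 3 members with the smallest p. Others are said to be chosen from their values, to which belong Ttn, Ccnd3, Rbl2, Xpc and Clock. Not considered for the 10 were predicted genes, small RNAs, pseudogenes, immunoglobulin and T cell receptor segments, and olfactory, vomeronasal and taste receptors. The text gives those that show each group best. Lists hold no test. Alternatives were the arrays in the fit, array weights, the variance prior, dim genes, renewed quantile normalisation, centring, merging of rows, a minimum log2 difference of 1, the replicate block, a term for the 8 arrays, an exact permutation test and arrays left out in turn. Of arrays, the number limits the precision.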

Additional observations from a re-analysis of the deposited data

Results flagged for a closer look

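In 66 sets of normal bladder values (27 genes and 39 list means), the highest or lowest of the 5 arrays was tested for a gap to its neighbour above Dixon's 95% critical value for 5 samples, which chance exceeds in about 1 of 20 sets. There were 3 such gaps. Hey2, a Notch target, was at 5.37 on normal bladder 6 and between 5.83 and 5.94 on the other normal bladders. The mean of genes of MHC and antigen presentation was 6.38 on normal bladder 6 and between 6.27 and 6.29 on the others. The mean of unfolded protein and heat shock genes was 7.12 on normal bladder 5 and between 7.21 and 7.23 on the others. Their causes were not tested.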

How the results depend on the processing

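Against all 5 normal bladders 0 genes passed by limma under every alternative run, with smallest adjusted p-values from 0.0609 (array weights) to 1, and 0 by the exact permutation test of 188 named genes. The 108 genes at an unadjusted p under 0.05 became 226 with only the 8 arrays compared, 3012 with array weights, 262 with the replicate block, 247 without the 8 arrays that stand apart and 51 with a term for them, and ran from 109 to 398 with 1 array left out. Against normal bladders 1 and 2, alternatives chosen after the data were seen gave 536 genes in place of 247 with only the 5 arrays compared and 136 to 521 with 1 array left out, and 0 to 1 genes passing, the 1 being Xist without treated bladder 3. With only those 5 arrays compared, the smallest adjusted p was 0.131 by limma. The causes of these shifts were not tested.

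With 1 array left out, the difference of Cdk4 ran from -0.016 (without treated bladder 3) to 0.87, that of Mki67 from -0.41 (without treated bladder 3) to 1.35, that of Myh11 from -0.66 to 0.67 (without treated bladder 1), and that of Myh4 from -0.86 (without treated bladder 1) to 1.67, or from -0.59 to 1.94 against normal bladders 1 and 2. Without normal bladders 1 or 2, Myh11 gave 0.32 and 0.26. Upk1b reversed to -0.15 with array weights and to -0.73 without the 8 arrays. Of the other alternatives, 478 and 187 kept the direction of the 27 genes over the 5 normal bladders and over normal bladders 1 and 2, though 88 and 11 of them moved the value by over 1.5 times. For list medians, 573 of the alternatives moved the value by less than the spread between treated arrays and 11 by more, but that spread is wide and many medians changed sign: 20 of 39 without treated bladder 3, 6 and 8 without treated bladders 1 and 2, 2 to 6 without a normal bladder, 14 with array weights, 13 without the 8 arrays, 7 with centring, 5 with a term for the 8 arrays, 3 with quantile normalisation, 1 without dim genes and 0 with rows averaged. The replicate numbers that groups share, 1 and 2, do not pair treated with normal bladders (r = -0.17 and -0.14 across 2624 genes). Signal of dim genes near 5.1 limits what small differences can show.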

Other observations

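Fat genes separated treated bladders 2 and 3. Fabp4, a fatty acid carrier of adipocytes, was at 9.49, 10.37 and 8.72 on treated bladders 1, 2 and 3 and between 7.86 and 9.12 on normal bladders. Ucp1, the uncoupling protein of brown fat, was at 5.37 on treated bladder 2 and between 4.23 and 4.72 on the other 7 arrays of the comparison. Cd36, a fatty acid transporter, was at 8.14, 6.76 and 5.17 on treated bladders and between 6.45 and 7.18 on normal ones. Of 19 measured adipocyte genes, 13 were above every normal array on treated bladder 2, where 17.0% of all genes were, and 14 were below every normal array on treated bladder 3, where 28.8% of all genes were. The list averaged 6.42, 6.53 and 5.68 on treated bladders and between 5.94 and 6.33 on normal ones, so that fat genes were lowest on treated bladder 3, where genes of the cell cycle were highest. Fabp4, Ucp1 and Cd36 were chosen after their values were seen.

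The mean levels of protein folding genes and of ribosomal protein genes were lowest on treated bladder 2. The mean of 19 unfolded protein and heat shock genes was 7.36, 6.79 and 7.64 on treated bladders 1, 2 and 3 and between 7.12 and 7.23 on normal ones, with 13 members below every normal array on treated bladder 2, where 15.1% of all genes were, and 10 above on treated bladder 3, where 21.1% were. Hspa8, the constitutive heat shock chaperone, chosen after its values were seen, was at 14.92, 11.95 and 16.13 on treated bladders and between 12.77 and 14.89 on normal ones. The mean of 16 measured ribosomal protein genes was 8.03, 7.53 and 8.36 on treated bladders and between 7.61 and 8.07 on normal ones. On treated bladder 2 only 3 of the 16 were below every normal array, near the 15.1% of all genes. On treated bladder 3, 13 were above every normal array, where 21.1% of all genes were, and on treated bladder 1, 6, where 12.0% were.

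Of 14 measured liver genes 9 were higher on treated than on all 5 normal bladders with a median difference of 0.09 (-0.002 without treated bladder 2), and 12 against normal bladders 1 and 2 with a median of 0.23. On treated bladders 1, 2 and 3, 4, 3 and 0 members were above every normal array, where 12.0%, 17.0% and 21.1% of all genes were. Ahsg, a plasma glycoprotein made in liver, was at 5.18 and 4.96 on normal bladders 1 and 2, at 6.26, 6.40 and 5.88 on normal bladders 4, 5 and 6, and at 5.99, 6.63 and 5.60 on treated bladders. Cyp2e1, a cytochrome P450 of liver and fat, was at 7.18, 8.06 and 4.90 on treated bladders and between 6.06 and 6.70 on normal ones. Alb, the albumin gene that defines hepatocytes, was between 5.13 and 6.13 on normal bladders and at 5.81, 5.77 and 5.41 on treated ones.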
